A study of Zonotrichia albicollis with 38 samples.

Results

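The genes of GABA synthesis, vesicular transport and reception were followed through hypothalamus (HYP) and medial amygdala (MeA) of male white-throated sparrows (Zonotrichia albicollis). They were taken by name from the authors' table of read counts, and all 9 were found among its 15111 genes: GAD1, GAD2, SLC32A1, GABRA2, GABRA4, GABRA5, GABRB2, GABRR1 and GABRR2. The table lists 8 of them by symbol, and SLC32A1 was matched by its gene ID, under which it is listed as LOC102071483.

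The 19 free-living males comprised 10 white-striped (WS) and 9 tan-striped (TS) birds, and each bird gave 1 HYP and 1 MeA library, 38 in all. WS birds carry ZAL2m, a rearranged copy of chromosome ZAL2, which TS birds lack. GABRR1 and GABRR2 lie on chromosome ZAL2. All birds were caught in the territorial season, the day after a staged intrusion with song playback, so every group shares that exposure. Tissue was punched from frozen sections, with 4 punches pooled per bird and region. HYP punches covered several nuclei, from the caudal medial preoptic area to the ventromedial hypothalamus, and MeA made up most but not all of the MeA tissue. The labels give age class SY for 7 TS and 2 WS birds and ASY for 2 TS and 8 WS birds. They give stage E for 6 TS and 8 WS birds, and stage I, L or L/I for the other 5 birds. The labels do not define the stage letters.

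GABA is the main inhibitory transmitter of the adult vertebrate brain. Neurons make it from glutamate with 2 enzymes, GAD67 (encoded by GAD1), which in mammals fills the cell body and terminals, and GAD65 (encoded by GAD2), which in mammals is concentrated at terminals. The vesicular transporter VGAT (encoded by SLC32A1) loads it into synaptic vesicles. GABA-A receptors are chloride channels built of 5 subunits, usually alpha, beta and gamma or delta, and the rho subunits form channels best known from the vertebrate retina. The hypothalamus and the medial amygdala are both known to be rich in GABAergic neurons.

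Libraries held 7150476 to 14482856 counts, with similar ranges in the 4 groups. Levels are given in CPM, counts scaled to a common library size with trimmed-mean (TMM) factors. Levels of different genes are not compared, since CPM is not corrected for transcript length. The tissue labels were checked with marker genes. Hypothalamus markers were higher in HYP in 8 of 8 tested genes, with a median sum of 852 CPM in HYP against 17.5 CPM in MeA. Only 3 of these markers had enough counts to be tested in MeA alone. Pallium markers were lower in HYP in 6 of 7. Markers of astrocytes (5 of 5), oligodendrocytes (4 of 4), microglia (4 of 4) and endothelial and mural cells (6 of 6) were lower in HYP. Only 3 of the microglia markers had enough counts to be tested in HYP alone. As background for all these counts, 40.8% of all genes tested were higher in HYP and 39% lower, at an adjusted p under 0.05 (edgeR). Pan-neuronal markers were split, with 3 of 8 higher and 5 lower in HYP. Glutamatergic neuron markers had 2 of 7 higher and 5 lower in HYP. Of these 7, 5 had enough counts to be tested in HYP alone and 6 in MeA alone. For the rest, having enough counts only in the other region itself favoured a higher level there. The median sum of all 7 glutamatergic markers was 604 CPM in HYP against 1744 CPM in MeA. In bulk tissue, fewer cells of a type and less RNA per cell cannot be told apart.

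The regional comparison asked how HYP and MeA of the same bird differed. GAD2 and SLC32A1 were higher in HYP, by 2.30-fold and 1.49-fold. GABRR1 and GABRR2 were also called higher in HYP, by 2.18-fold and 2.33-fold, but they passed the filter on low counts only through their HYP libraries. GAD1, GABRA2 and GABRA5 were higher in MeA, by 1.87-fold, 1.31-fold and 3.10-fold. GABRA4 and GABRB2 did not pass the test. Thus 7 of the 9 genes were called at an adjusted p under 0.05 (edgeR's quasi-likelihood test, bird as a block, Benjamini-Hochberg adjustment over 12245 genes), against 79.8% of all genes tested. Of all genes, 40.8% were called higher in HYP and 39% lower. A count of 7 of 9 is near that background. The median absolute log2 fold change was 0.91 for the 9 genes and 0.32 for all genes tested. Without GABRR1 and GABRR2, 5 of 7 genes were called and the median was 0.57.

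The 2 synthesis enzymes went in opposite directions. GAD1 ranged from 194 to 293 CPM in HYP with a median of 233 CPM, and from 369 to 536 CPM in MeA with a median of 449 CPM. Every MeA library lay above every HYP library, and MeA was higher in 19 of 19 birds. The mean level was 236 ± 27.1 CPM in HYP against 442 ± 52.7 CPM in MeA (SD, n = 19 each), a log2 fold change of −0.91 (SE 0.047, adjusted p = 1.03e-14, edgeR). GAD2 ranged from 833 to 1122 CPM in HYP with a median of 992 CPM, and from 369 to 501 CPM in MeA with a median of 435 CPM. Here every HYP library lay above every MeA library. The mean level was 997 ± 81.3 CPM in HYP against 434 ± 35.7 CPM in MeA (SD, n = 19 each), a log2 fold change of 1.2 (SE 0.035, adjusted p = 1.20e-19, edgeR).

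The ratio of GAD2 counts to GAD1 counts within a library put both genes on one scale for the regional contrast. It was 4.26 ± 0.358 in HYP (range 3.78 to 4.96) and 0.990 ± 0.10 in MeA (range 0.821 to 1.2; SD, n = 19 each). It was higher in HYP in 19 of 19 birds, and the ranges did not meet. In HYP the ratio was 4.18 ± 0.370 in WS (n = 10) and 4.35 ± 0.343 in TS birds (n = 9), and in MeA it was 0.999 ± 0.117 and 0.979 ± 0.0838. The size of the ratio within a region also depends on the lengths of both transcripts, so only its change between regions was read.

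SLC32A1, which fills vesicles with GABA, ranged from 256 to 372 CPM in HYP and from 178 to 273 CPM in MeA. The regions overlapped at their edges, yet HYP was higher in 19 of 19 birds. The mean level was 322 ± 31.5 CPM in HYP against 217 ± 22.6 CPM in MeA (SD, n = 19 each), a log2 fold change of 0.57 (SE 0.036, adjusted p = 3.96e-13, edgeR). SLC32A1 therefore shared its direction with GAD2 and not with GAD1. GAD1, GAD2, SLC32A1 and GABRA5 differed in one direction in every bird, as did 41.6% of all genes tested. GAD1, GAD2 and GABRA5 had no overlap between regions, as did 20.6% of all genes tested.

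**Figure D1:**
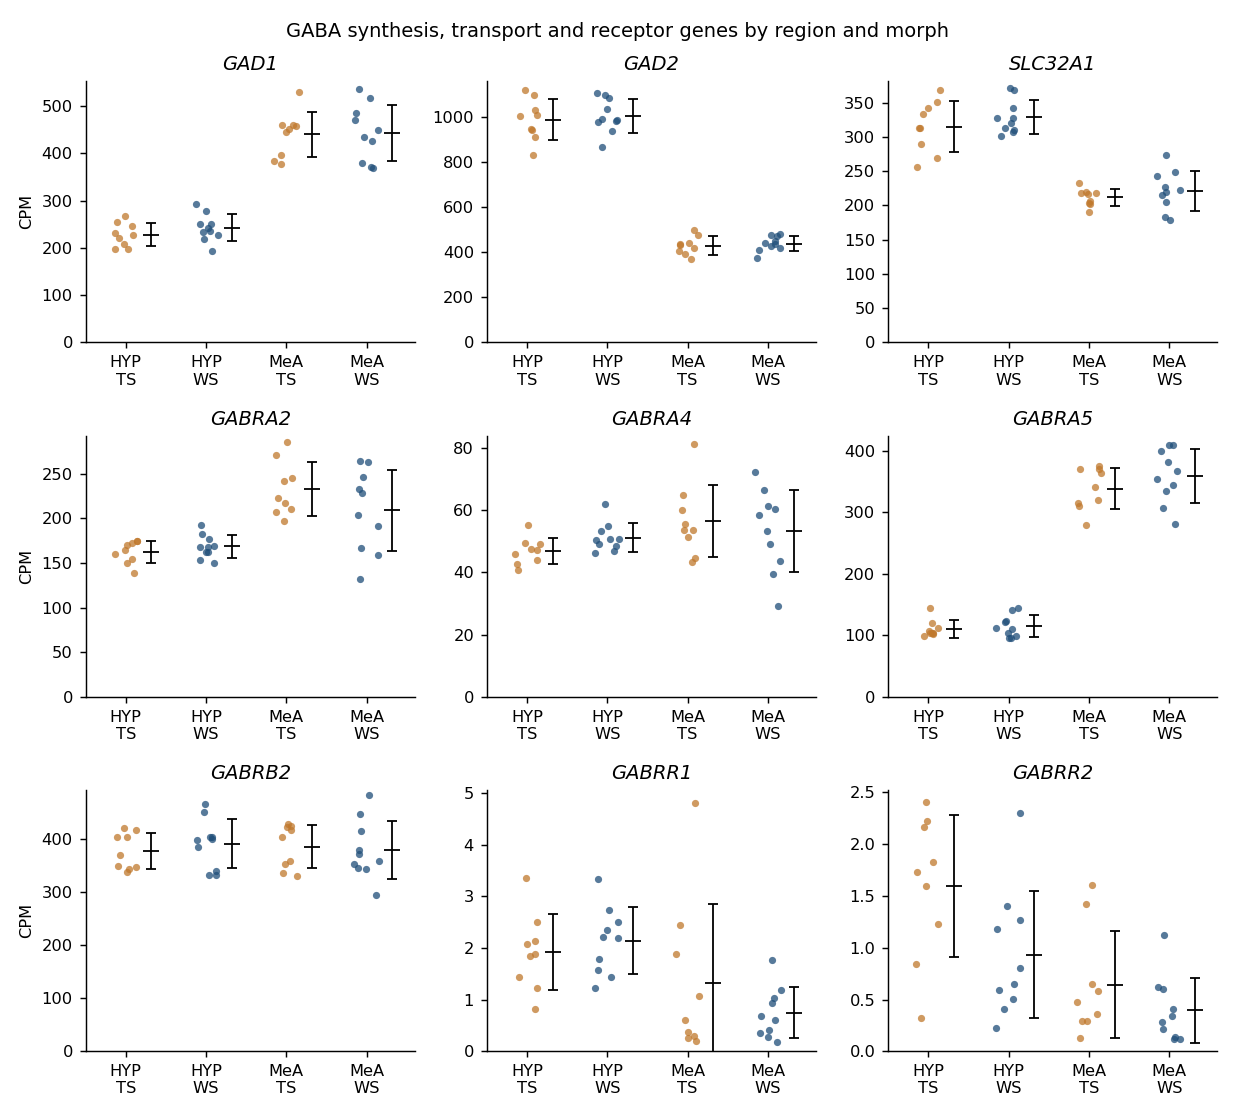
Level of each gene in CPM (vertical axes, each from 0) in TS and WS birds of each region, with 1 point per library and the mean ± SD beside the points (n = 9 TS and 10 WS; 1 lower error bar of GABRR1 runs below 0 and is cut off). GAD1 and GABRA5 sit higher in MeA and GAD2 and SLC32A1 higher in HYP, while the 2 morphs overlap for every gene.

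Among the 4 alpha and beta subunit genes of the set, GABRA5 differed most between regions. Its alpha 5 protein is known in mammals mainly from receptors outside the synapse. GABRA5 ranged from 95.7 to 145 CPM in HYP with a median of 107 CPM, and from 280 to 409 CPM in MeA with a median of 354 CPM. The mean level was 113 ± 15.7 CPM in HYP against 349 ± 39.5 CPM in MeA (SD, n = 19 each), a log2 fold change of −1.63 (SE 0.055, adjusted p = 2.11e-18, edgeR). The smallest gap within a bird was a log2 difference of −1.24, in TS bird Sample_23607, and the largest was −2.09, in WS bird Sample_23601.

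GABRA2, an alpha subunit of synaptic receptors, ranged from 139 to 192 CPM in HYP and from 132 to 285 CPM in MeA. MeA was higher in 16 of 19 birds, and the regions overlapped. The mean level was 165 ± 12.6 CPM in HYP against 220 ± 40.0 CPM in MeA (SD, n = 19 each), a log2 fold change of −0.39 (SE 0.059, adjusted p = 1.79e-06, edgeR). The spread between birds was 18.2% of the mean in MeA and 7.65% in HYP. GABRA4, an alpha subunit known in mammals from receptors outside the synapse, showed the same difference in spread, at 22.1% of the mean in MeA and 9.88% in HYP. GABRA4 was at 49.1 ± 4.85 CPM in HYP against 54.8 ± 12.1 CPM in MeA (SD, n = 19 each). MeA was higher in 14 of 19 birds, and the log2 fold change of −0.13 (SE 0.068, 95% interval −0.27 to 0.01, adjusted p = 0.0758, edgeR) missed the threshold. Without WS bird Sample_23600 it was −0.18 (adjusted p = 0.00399, edgeR), past the threshold. The same held without WS bird Sample_23710, at −0.15 (adjusted p = 0.0386, edgeR). In both birds HYP was higher, so leaving either out favoured the call and is no further test of the difference. With any other single bird left out GABRA4 missed the threshold (adjusted p up to 0.194, edgeR).

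GABRB2, a beta subunit of synaptic receptors, was at 384 ± 40.4 CPM in HYP against 382 ± 47.6 CPM in MeA (SD, n = 19 each). HYP was higher in 10 birds and MeA in 9. Its log2 fold change was 0.01 (SE 0.028, adjusted p = 0.710, edgeR), and the 95% interval of −0.05 to 0.07 bounds the regional difference closely.

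The rho subunit genes of chromosome ZAL2 were counted sparsely. GABRR1 gave a median of 26 counts per library in HYP and 6 in MeA, and GABRR2 a median of 14 and 3. Both passed the filter on low counts through their HYP libraries and did not pass in a fit on MeA alone, so passing the filter itself favoured a higher level in HYP. GABRR1 was at 2.04 ± 0.682 CPM in HYP against 1.02 ± 1.12 CPM in MeA (SD, n = 19 each), a log2 fold change of 1.12 (SE 0.27, adjusted p = 0.000598, edgeR). HYP was higher in 17 of 19 birds. TS bird Sample_23607 went furthest the other way, with 57 counts in MeA (4.81 CPM) and 28 in HYP (2.14 CPM). GABRR2 was at 1.25 ± 0.717 CPM in HYP against 0.515 ± 0.430 CPM in MeA (SD, n = 19 each), a log2 fold change of 1.22 (SE 0.30, adjusted p = 0.000781, edgeR). HYP was higher in 15 of 19 birds. The third rho gene, GABRR3, did not pass the filter, with a median of 0.578 CPM in HYP against 0.598 CPM in MeA.

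The regional differences were also read within each morph from the model with a morph by region term. GAD1 differed by a log2 fold change of −0.95 in TS and −0.87 in WS birds, GAD2 by 1.2 in both, SLC32A1 by 0.57 and 0.58, and GABRA5 by −1.62 and −1.65. GABRA2 differed by −0.52 in TS (SE 0.079) and −0.28 in WS birds (SE 0.075). GABRA4 differed by −0.25 in TS (SE 0.094, adjusted p = 0.0207, edgeR) and −0.03 in WS birds (SE 0.090, adjusted p = 0.804, edgeR). GABRR1 differed by 0.73 in TS (SE 0.37) and 1.5 in WS birds (SE 0.37). The interaction of GABRR1 was 0.77 on the log2 scale, and 0.34 without TS bird Sample_23607. The difference between the morphs was tested by the interaction term itself, and 0 of 9 genes were called (edgeR, against 0.0245% of 12245 genes; 0 by DESeq2). Without adjustment 1 of the 9 genes had a p under 0.05 (edgeR), against 1287 of all 12245 genes tested. This gene was GABRA2, with an interaction of 0.24 on the log2 scale (SE 0.11, 95% interval 0.01 to 0.47, adjusted p = 0.453, edgeR).

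Several of these subunit genes are neighbours in the RefSeq gene table (assembly bZonAlb1.hap1), with 0 protein-coding genes between them. Some neighbours went in opposite directions between regions and others did not. Beside GABRA5 lies GABRG3, with a log2 fold change of 2.52 (SE 0.074). GABRA4 and GABRA2 lie between GABRB1, with 2.83 (SE 0.17), and GABRG1, with 3.16 (SE 0.11). The outer pair was thus higher in HYP and GABRA2, on the inside, higher in MeA. GABRA4, next to GABRA2, leaned the same way as GABRA2, with −0.13 against −0.39, and was not called. GABRG3, GABRB1 and GABRG1 were called (edgeR, adjusted p under 0.05). GABRB1 had a median of 68 counts per library in HYP and 8 in MeA. Like the rho genes, it passed the filter on low counts through its HYP libraries, which itself favoured a higher level in HYP. GABRB2 is followed by GABRA6, which did not pass the filter.

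**Figure D2:**
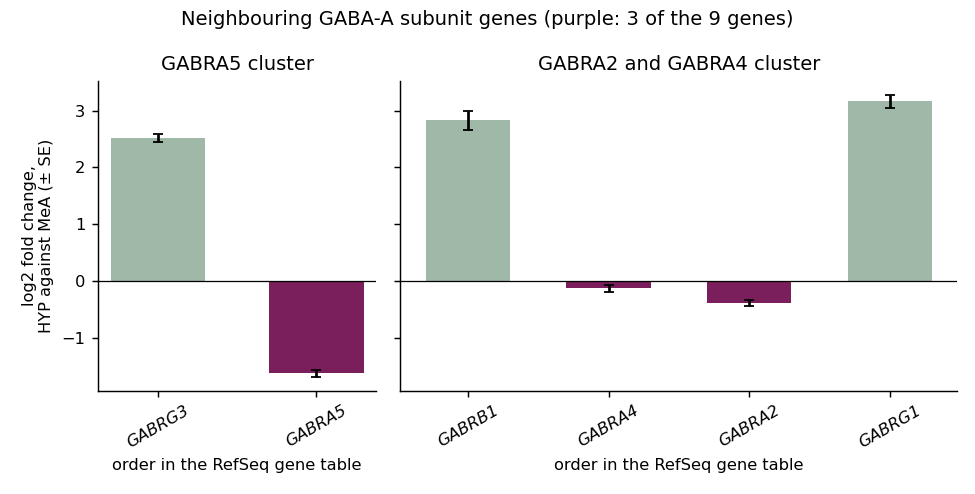
Log2 fold change of HYP against MeA (vertical axis, ± SE; above 0 is higher in HYP) for 6 subunit genes in their order in the RefSeq gene table, with the genes described here in purple. GABRG3, GABRB1 and GABRG1 stand at 2.52 to 3.16 while GABRA5 next to GABRG3 stands at −1.63. GABRB1 passed the filter on low counts through its HYP libraries.

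Other genes of the pathway were taken from 7 lists of 64 genes, of which 47 were in the count table and 44 were tested. In HYP 20 were higher and 17 lower, and 7 were not called, a share near the 79.8% called among all genes (40.8% higher and 39% lower). The counts by list below are a description against that background. Of the other GABA-A subunits, 5 of 9 were higher and 3 lower. GABRB1, among those higher, passed the filter on low counts through its HYP libraries. The alpha subunit gene GABRA3 was at 171 ± 17.2 CPM in HYP against 22.1 ± 4.49 CPM in MeA (SD, n = 19 each), a log2 fold change of 2.96 (SE 0.070). The delta subunit gene GABRD, whose protein is known in mammals from receptors outside the synapse, was lower in HYP, with −1.61 (SE 0.078), and so was GABRP, which encodes the pi subunit, with −0.65 (SE 0.16). GABRD therefore had the direction of GABRA5. GABRA4, also known from receptors outside the synapse, was not called, and GABRA2, of synaptic receptors, was lower in HYP too.

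Of the GABA-B receptor list, 2 of 4 tested genes were lower in HYP and none was higher. They were GABBR2, a receptor subunit, with a log2 fold change of −1.31 (SE 0.032), and KCTD12, an auxiliary subunit, with −0.78 (SE 0.066). Uptake and breakdown were split, with 3 of 7 higher and 2 lower. The GABA transporter gene SLC6A11 (GAT3), in mammals mainly glial, was higher in HYP with 1.51 (SE 0.034), as was ABAT, which encodes the GABA-degrading transaminase, with 0.36 (SE 0.026).

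SLC6A13 (GAT2), known in mammals from the leptomeninges and the liver, had the largest fold of these lists, 41.2-fold lower in HYP (log2 fold change −5.36, SE 0.25). It ranged from 0.153 to 1.51 CPM in HYP and from 2.03 to 95.8 CPM in MeA. Leptomeningeal markers were lower in HYP in 2 of 3 tested genes, and their sum ranged from 36.7 to 55.7 CPM in HYP and from 26.1 to 225 CPM in MeA. None of the 4 markers was at 0 in all libraries. The part of these markers in the SLC6A13 difference was not tested.

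Of the postsynaptic scaffold and trafficking genes, 6 of 10 were higher in HYP and 2 lower. IQSEC3, with 0.89 (SE 0.039), and NLGN4X, with 0.80 (SE 0.033), led those higher, and the scaffold gene GPHN (gephyrin), with −0.31 (SE 0.026), and GABARAPL1, with −0.25 (SE 0.031), were the ones lower. Of 3 chloride transporters, which set the driving force of GABA-A channels, SLC12A7 was higher with 0.26 (SE 0.035). SLC12A2 (NKCC1, which brings chloride in) was lower with −0.52 (SE 0.063), and so was SLC12A5 (KCC2, which takes it out) with −0.32 (SE 0.050). Glutamine supply had 1 gene higher, the transporter SLC38A1 with 0.52 (SE 0.032), and 3 lower, led by GLUL, which encodes the enzyme that makes glutamine, with −0.56 (SE 0.027).

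Transcription factors of GABAergic neurons had 4 of 7 higher and 3 lower. LHX8 was higher with 3.44 (SE 0.12) and DLX1 with 1.80 (SE 0.071), while TAL1 was lower with −1.91 (SE 0.20) and LHX6 with −1.26 (SE 0.064). LHX8 had a median of 103 counts per library in HYP and 8 in MeA. It passed the filter on low counts through HYP, which itself favoured a higher level there. TAL1 is also known from blood and endothelial cells, whose markers were lower in HYP in 6 of 6 genes, with a sum of 234 to 341 CPM in HYP and 265 to 445 CPM in MeA. Their part in the TAL1 difference was not tested. Interneuron markers had 4 of 12 higher and 6 lower. The peptide gene CCK, with 3.71 (SE 0.38), and the calcium-binding CALB2, with 2.0 (SE 0.077), were higher in HYP. For CCK, HYP was higher in 18 of 19 birds. TS bird Sample_23607 went the other way and held 725 of the 1234 CCK counts in MeA. PVALB, which marks fast-spiking interneurons in mammals, was lower with −4.69 (SE 0.086), at 17.1 ± 5.78 CPM in HYP against 435 ± 86.9 CPM in MeA (SD, n = 19 each), and so was CNR1, the cannabinoid receptor, with −1.43 (SE 0.054). All these were called (edgeR, adjusted p under 0.05).

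**Figure D3:**
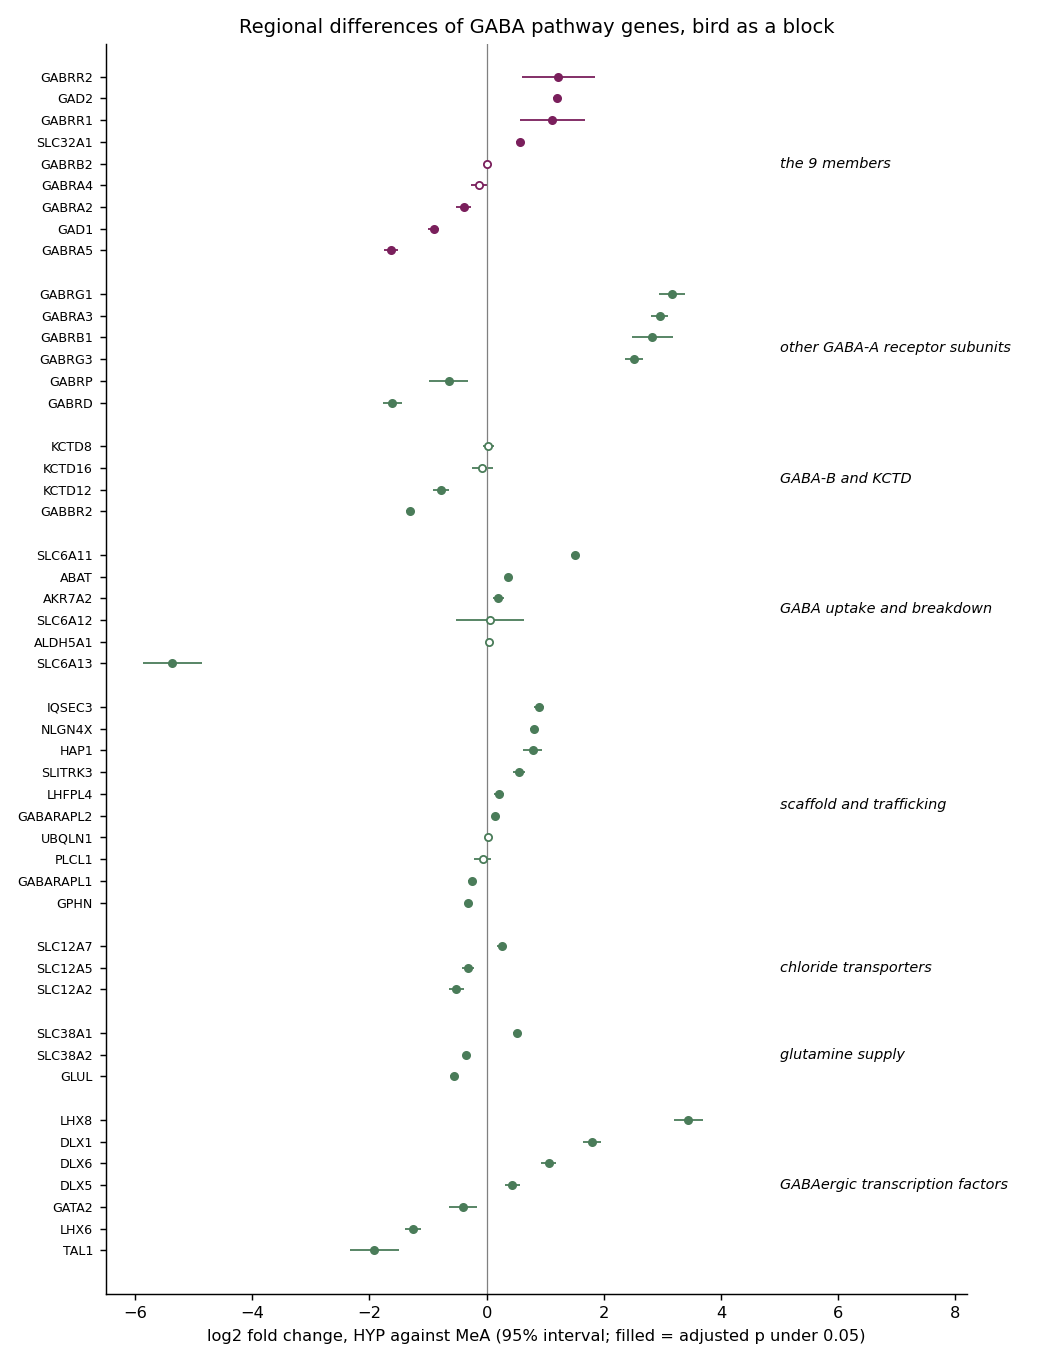
Log2 fold change of HYP against MeA (horizontal axis, with 95% intervals) for the 9 genes in purple and other pathway genes tested in green, by list, filled where the adjusted p was under 0.05. SLC6A13 lies furthest to the MeA side at −5.36 and LHX8 furthest to the HYP side at 3.44. LHX8 passed the filter on low counts through its HYP libraries.

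The levels of the GABA genes were next followed across birds, after the mean of each morph was taken off. In HYP, GAD1, GAD2 and SLC32A1 varied together, though GAD1 and GAD2 stood on opposite sides of the regional contrast. Pearson's r was 0.693 for GAD1 and GAD2 (rho 0.677, adjusted p = 0.00401), 0.719 for GAD1 and SLC32A1 (rho 0.730, adjusted p = 0.00242) and 0.770 for GAD2 and SLC32A1 (rho 0.730, adjusted p = 0.00178; permutation tests over 19 birds). In MeA, r was 0.768 for GAD2 and SLC32A1 (rho 0.826, adjusted p = 0.00017, permutation test; the unadjusted 1e-05 is the smallest p it can give). It was 0.548 for GAD1 and GAD2 (rho 0.577, adjusted p = 0.0446, permutation test) and 0.358 for GAD1 and SLC32A1 (rho 0.407, adjusted p = 0.333, permutation test), which missed the threshold. Without the 2 birds farthest from the median of the first gene, r was 0.664, 0.804 and 0.676 in HYP for these pairs in the order given, and 0.751, 0.622 and 0.450 in MeA.

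Each gene was also compared between the 2 regions of the same bird. GABRB2 was the only one of 9 past the threshold, with r of 0.769 (rho 0.718, adjusted p = 0.0021, permutation test over 19 birds; 0.734 without the 2 farthest birds). For the other genes r lay between −0.296 for GABRR2 and 0.387 for GABRA4. GABRR1 and GABRR2 did not vary together past the threshold, with r of −0.115 in HYP (rho −0.00877, adjusted p = 0.685, permutation test) and 0.301 in MeA (rho 0.146, adjusted p = 0.373, permutation test). Of these 17 relations 6 passed. The share that would pass among other gene pairs was not measured, so these counts have no background.

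All 72 pairs within a region were added after values had been seen, and 6 passed, again with no background from other gene pairs. In this larger family GAD1 and GAD2 in MeA no longer passed (adjusted p = 0.0872, permutation test). GABRA2 and GABRA4 in MeA had r of 0.929 (rho 0.919, adjusted p = 0.00036, permutation test over 19 birds; 0.885 without the 2 farthest birds). WS bird Sample_23600 was lowest in both, at 132 CPM for GABRA2 and 29.2 CPM for GABRA4, and TS bird Sample_23626 highest in both, at 285 and 81.3 CPM. Summed astrocyte markers in MeA were highest in the first of these libraries, at 8651 CPM, and lowest in the second, at 5598 CPM. The part of astrocyte content in this relation was not tested. The other pair outside the synthesis and transport genes was SLC32A1 and GABRR2 in HYP, with r of 0.627 (rho 0.565, adjusted p = 0.0491, permutation test), where GABRR2 had 3 to 29 counts per library. Its adjusted p on ranks was 0.103.

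**Figure D4:**
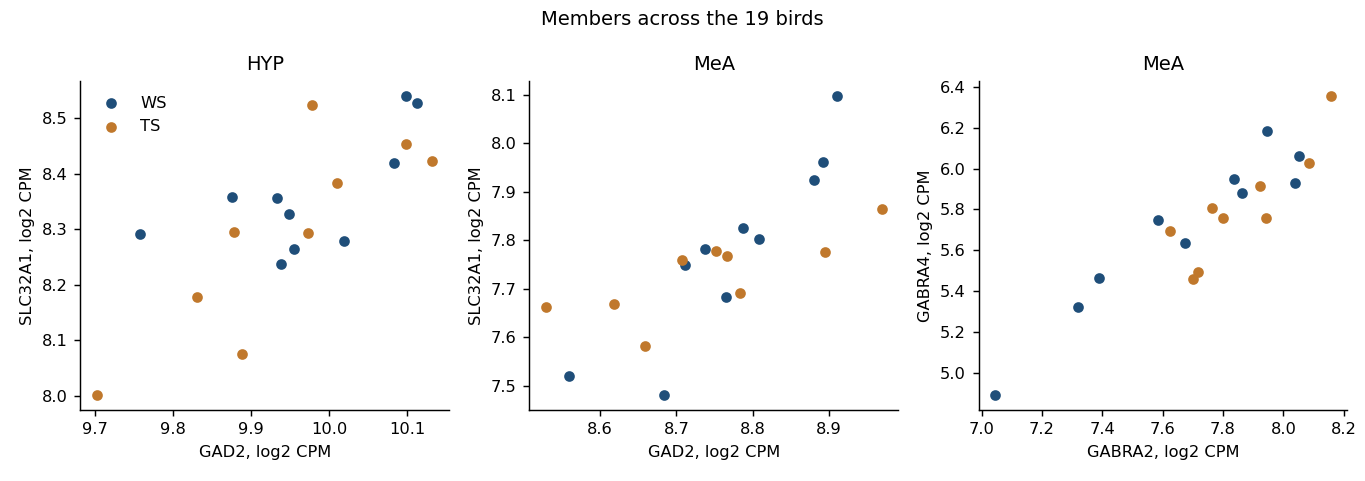
Log2 CPM of GAD2 against SLC32A1 in HYP and in MeA, and of GABRA2 against GABRA4 in MeA, with 1 point per bird coloured by morph (19 birds a panel). With morph means taken off, Pearson's r was 0.770, 0.768 and 0.929.

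The genes whose levels ran most like 4 of these genes over the 19 libraries of a region were listed as a description. For GAD1 they were RGS16 (r 0.795) in HYP, beside an unnamed locus, LOC102068481 (r 0.804), and MAPK9 (r 0.779) and HRH3 (r 0.773) in MeA. For SLC32A1 they were NPLOC4 (r 0.833) in HYP and NFYC (r 0.772) in MeA. For GABRR1 they were CCAR1 (r 0.737) in HYP, beside an unnamed locus, LOC102071915 (r 0.774), and ZNF521 (r 0.834) and CBLN1 (r 0.817) in MeA. For GABRR2 they were ISM1 (r 0.849) and SNTG2 (r 0.835) in HYP and CHRNA1 (r 0.746) in MeA. In MeA the median was 6 counts per library for GABRR1, with 57 in 1 library, and 3 for GABRR2. The 3 most similar genes of each had no gene in common between the regions. These are the highest of 11921 genes in HYP and 11665 in MeA.

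The study's main comparison set WS against TS birds. In HYP 0 of the 9 genes were called (edgeR, against 0.796% of 11930 genes), and 0 by DESeq2. Without adjustment 2 of the 9 had a p under 0.05 (edgeR), against 7.59% of all genes tested. In MeA 0 of the 7 genes tested were called (edgeR, against 0.523% of 11672 genes), and 0 by DESeq2. Without adjustment 0 of the 7 had a p under 0.05 (edgeR), against 8.85% of all genes tested. The morphs overlapped for every gene in both regions, while 0.268% of genes tested in HYP and 0.206% in MeA had no overlap. For the 7 genes other than the rho subunits, log2 fold changes of WS against TS lay between 0.03 for GAD2 and 0.13 for GABRA4 in HYP. In MeA they lay between −0.16 for GABRA2 and 0.08 for GABRA5.

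GABRA4 in HYP was at 51.2 ± 4.60 CPM in WS (n = 10) and 46.9 ± 4.27 CPM in TS birds (n = 9). Its log2 fold change was 0.13 (SE 0.058, 95% interval 0.01 to 0.25, adjusted p = 0.626, edgeR). GAD1 differed by 0.09 in HYP (95% interval −0.06 to 0.23) and 0.01 in MeA (−0.15 to 0.17). GAD2 differed by 0.03 (−0.08 to 0.14) and 0.03 (−0.09 to 0.15), and SLC32A1 by 0.06 (−0.07 to 0.19) and 0.06 (−0.07 to 0.20). For GAD1, GAD2 and SLC32A1 these intervals lie below the size of the regional difference.

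GABRR2, on chromosome ZAL2, had the largest morph difference of the set in HYP, and it was not called. In WS birds it ranged from 0.230 to 2.30 CPM with a median of 0.730 CPM, and in TS birds from 0.324 to 2.41 CPM with a median of 1.73 CPM. Of 10 WS birds 9 lay below the TS mean, and the ranges overlapped almost wholly. The mean was 0.936 ± 0.618 CPM in WS (n = 10) and 1.59 ± 0.686 CPM in TS birds (n = 9), a log2 fold change of −0.77 (SE 0.34, 95% interval −1.47 to −0.06, adjusted p = 0.594, edgeR). Over the alternative fits on counts it ran from −1.22 with age class in the model (adjusted p = 0.346, edgeR) to −0.643 with a bird left out. On the authors' variance-stabilized values the difference was −0.13 (adjusted p = 0.594, limma). At such low counts that scale is not directly comparable with the fold changes. In MeA, where GABRR2 was below the filter, it was at 0.397 ± 0.315 CPM in WS (n = 10) and 0.646 ± 0.518 CPM in TS birds (n = 9). The unfiltered log2 fold change there was −0.68 (SE 0.45, adjusted p = 0.686, edgeR).

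GABRR1, also on ZAL2, was at 2.14 ± 0.648 CPM in WS (n = 10) and 1.92 ± 0.739 CPM in TS birds (n = 9) in HYP, a log2 fold change of 0.16 (SE 0.22, 95% interval −0.30 to 0.61, adjusted p = 0.934, edgeR). In MeA it was at 0.744 ± 0.493 CPM in WS (n = 10) and 1.33 ± 1.53 CPM in TS birds (n = 9), where 1 TS bird held 57 of the 127 counts of the group. The unfiltered log2 fold change was −0.82 (SE 0.53, adjusted p = 0.681, edgeR). The authors' name for the counts includes the words NCBI plus Zal2m, which the sources used here do not explain. How reads from ZAL2m were aligned is not stated. The part of the alignment in the values of GABRR1 and GABRR2 was not tested.

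**Figure D5:**
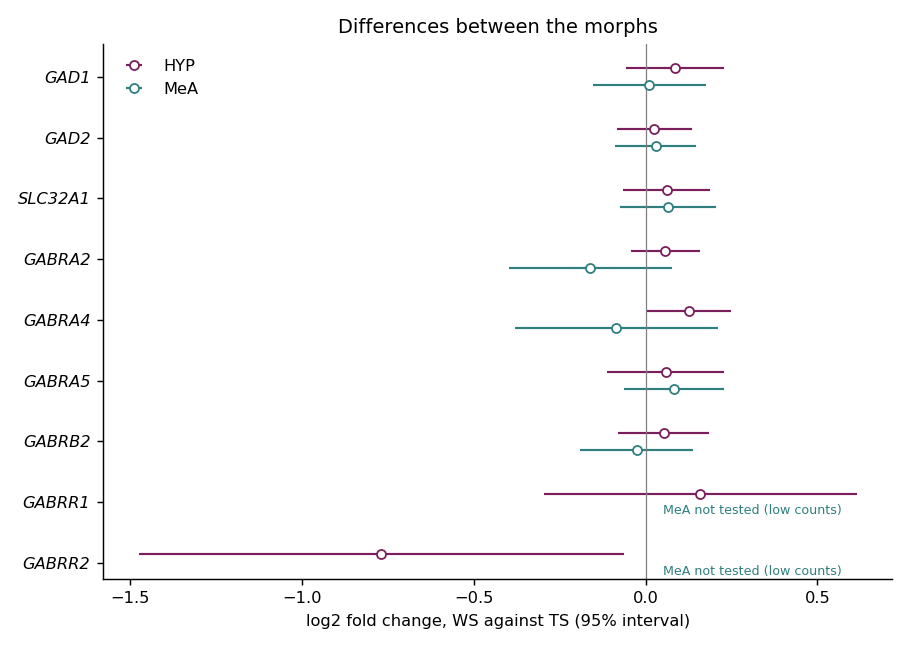
Log2 fold change of WS against TS birds (horizontal axis, with 95% intervals) for each gene in HYP and MeA, open symbols marking genes that were not called. The intervals of GABRA4 and GABRR2 in HYP leave out 0 before adjustment over all genes, and GABRR1 and GABRR2 were not tested in MeA.

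Of the other pathway genes, 0 of 44 tested in HYP, 0 of 41 in MeA and 0 of 44 for the interaction were called between the morphs (edgeR; 3, 1 and 4 at an unadjusted p under 0.05). Of all genes tested, 905 of 11930, 1033 of 11672 and 1287 of 12245 had such an unadjusted p in these fits (edgeR). DESeq2 called 1 of the pathway genes in HYP, SLC12A7 (edgeR's log2 fold change 0.20, adjusted p = 0.102), and 0 in the other 2 fits. Age class and stage were tested with morph in the model, and 0 of the 9 genes in HYP and 0 of 7 in MeA were called in either (edgeR; 0 by DESeq2). Of all genes, 0% were called in each of the 4 fits, with 562 and 418 genes at an unadjusted p under 0.05 for age in HYP and MeA and 677 and 1047 for stage. DESeq2 called 6 and 5 genes for age and 21 and 12 for stage. Among the GABA genes tested an unadjusted p under 0.05 was seen for 2, both for stage in MeA, against 8.97% of all genes there (edgeR). GABRA2 was higher in the 5 birds of later stages by 0.27 on the log2 scale (SE 0.12, adjusted p = 0.540, edgeR) and GABRA4 by 0.36 (SE 0.14, adjusted p = 0.527, edgeR), and neither was called. GABRR1, below the filter in MeA, had an unfiltered log2 fold change of −1.97 there (SE 0.61, unadjusted p = 0.00395, adjusted p = 0.593, edgeR). It rests on sparse counts, 2 to 6 in each of the 5 birds of later stages. Stage E bird Sample_23607 alone held 57 of the 203 counts.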

How the data were processed

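RNA-seq libraries of 19 birds and 2 regions were analysed. The authors deposited whole-number read counts per gene, not normalized, and, per region, variance-stabilized values on an approximately log2 scale. The submitters' processing notes name STAR, Novoalign, HTSeq, GATK, SAMtools and DESeq2, without roles. The sources used here give no versions, genome build, strand use or rule for multiply matching reads. The count table also holds 2 columns of a bird outside the samples, which were not used. Of 4637 LOC identifiers, 1534 received a symbol from the RefSeq gene table.

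The quasi-likelihood tests were run on the counts in edgeR 4.0.16 (R 4.3.3; TMM factors, filterByExpr by region and morph, Benjamini-Hochberg adjustment over all genes tested, calls under 0.05). Intervals are at 95%. Log2 CPM used a pseudocount of 0.5 CPM. Bird was a block between regions, since the number in the labels is the bird's: deviations from group means over 12245 genes correlated by 0.253 to 0.440 within birds, for all 19 birds. Permutation tests were two-sided with 100000 resamples. DESeq2 1.42.0, limma 3.58.1 on the deposited log2 values, RLE factors, no filter, robust dispersion, age class, stage E birds, no block and leaving out each bird were alternatives. Libraries of a group differed beyond sampling noise (chi-square per gene of at least 5.25). On simulated counts for WS against TS in HYP (11930 genes) the test recovered 89% of genes changed by 1.5-fold and 95% by 2-fold, and in MeA (11672 genes) 74% and 93%. The changed genes were drawn at random from all genes tested. Recovery at counts as low as those of GABRR1 and GABRR2 was therefore not measured. The simulations gave 189 calls in HYP and 172 in MeA, against 95 and 61 in the data. Recovery depends on how many genes change, so these rates may not hold for the real morph comparison.

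The genes and lists were chosen with earlier results of these data known. Named genes were the 9 genes, the 2 called genes with the largest regional change in each direction per list, every called list gene in the other comparisons, and the 3 genes most like GAD1, SLC32A1, GABRR1 and GABRR2 per region. Some genes of the lists are not reported here by name. Neighbours in the subunit clusters, and SLC12A7 between the morphs, were named after their values were seen.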

Additional observations from a re-analysis of the deposited data

Results flagged for a closer look

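In 36 groups of 9 or 10 libraries (each gene by region and morph), 3 libraries stood further from the nearest other than Dixon's 95% critical value allows. For normally distributed values, chance gives such a gap in about 1 of 20 groups. That rate was not established for sparse counts such as those of GABRR1 and GABRR2. GABRA5 in HYP of TS birds was highest in bird Sample_23607, at 143.8 CPM, with the next library at 120.0 CPM. GABRR1 in MeA of TS birds was highest in the same bird, at 4.81 CPM (57 counts), with the next at 2.46 CPM. GABRR2 in MeA of WS birds was highest in bird Sample_23601, at 1.13 CPM (12 counts), with the next at 0.619 CPM. Without bird Sample_23607, the regional log2 fold change of GABRR1 was 1.35 (adjusted p = 2.27e-05, edgeR). That bird had the highest MeA level of GABRR1, and the gene passed the filter on low counts through HYP. The fit without it is therefore no further test of the regional difference.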

How the results depend on the processing

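The 7 regional calls of GABA genes kept their direction and side of the threshold under every alternative, the fit with no replicate block included. GABRR1 and GABRR2 are among these 7, and passing the filter through HYP favoured their direction. With both morphs in the regional comparison, GABRA4 was called only without bird Sample_23600, without bird Sample_23710 or without 4 birds. GABRA4 was higher in HYP in Sample_23600 and Sample_23710, so leaving either out favoured the call. Without the 4 birds its log2 fold change was −0.18 (adjusted p = 0.00976, edgeR). These 4, bird Sample_23600 among them, lie at the ends of the first principal component of the MeA libraries, a choice made after seeing the data. GABA genes called numbered 7 to 8 between regions, and 0 in the other comparisons, with each bird left out. All genes called for WS against TS in HYP were 95, and 146 with DESeq2, 51 with age class, 45 in stage E birds and 73 to 92 with a bird left out. In MeA they were 61, and 122 with DESeq2, 18 with age class, 16 in stage E birds, 30 without the 4 birds and 48 to 61 with a bird left out. For the interaction they were 3, and 17 with DESeq2, 0 with age class by region, 1 without the 4 birds and 2 to 4 with a bird left out. Between regions they were 9676 to 9754 with a bird left out. The cause was not tested.

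Log2 values near 0, none called, changed sign. Morph in MeA: −0.061 for GAD1 and −0.0037 for GAD2 with age class, −0.0038 for GAD1 and 0.037 for GABRB2 in stage E birds, and −0.013 for GAD2, −0.016 for SLC32A1 and 0.029 for GABRA4 without the 4 birds. Interaction: 0.0058 for GAD2 and 0.049 for GABRA5 with age class, 0.044 for GABRR2 in stage E birds, 0.020 for GAD2 without the 4 birds, and −0.0036 for SLC32A1 with no replicate block. With each bird left out, GAD2 in HYP ran from −0.0025 to 0.052, GAD1 in MeA from −0.024 to 0.044 and GABRB2 in MeA from −0.070 to 0.0087. The interaction ran from −0.018 to 0.047 for SLC32A1, −0.073 to 0.022 for GABRA5, −0.040 to 0.027 for GAD2 and −0.498 to 0.227 for GABRR2. Dropping the replicate block changed no call of a GABA gene.

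Depth limits GABRR1 and GABRR2, which had 2 to 57 and 1 to 29 counts per library. Age class and morph are uneven, so their parts in a morph difference are not separated well. The deposited log2-scale values and raw morph levels each left 6 correlations past the threshold.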
